A study of Mus musculus with 6 samples.

Results

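Aim2 and the Ifi200 genes Ifi203, Ifi204, Ifi205, Ifi206 and Mndal were chosen because they read lower in Dnmt3a+/- than in wild-type blood-forming cells, so their genotype differences are given here as a description, with no test. Of these 6 genes, 5 had at least 1 array probe set listed under a single gene symbol that led to them, 71 probe sets in all, out of 318760 such probe sets in the table. For Mndal no probe set could be assigned in this way, and its level is not analysed here. Of the 71 probe sets, 60 lay above the median level of the table, and the mean log2 intensity of these gave the gene value of each of the 5 genes. The table as a whole gave 20059 such gene values.

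The RNA came from KLS cells, sorted from bone marrow as positive for Kit and Sca-1 and negative for lineage antigens, a population in which blood stem cells and early progenitors are enriched. There were 3 arrays of wild-type and 3 of Dnmt3a+/- samples, the latter carrying 1 intact copy of the DNA methyltransferase gene Dnmt3a, and 20 ng of total RNA was amplified for each. No source used here states the strain, the age or the making of the allele. Nor do the labels say that replicates were different mice, so spreads and p-values measure only how these samples vary, part of which may be technical. KLS cells are a mixture, and in such bulk RNA fewer cells of a type and less RNA per cell cannot be told apart.

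The Ifi200 genes lie next to each other and to Aim2 and encode the PYHIN proteins. Most of these proteins join a pyrin domain, through which they bind other pyrin proteins, to a HIN domain, which binds DNA. Aim2 detects double-stranded DNA in the cytosol and assembles an inflammasome with the adaptor Pycard and Caspase-1. Ifi204, the mouse counterpart of IFI16, has been linked to DNA sensing through Sting1 and to the control of growth and differentiation. Interferons induce many members of the family, and the human relative MNDA takes its name from myeloid cells.

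Most promoters of the family carry an interferon element, shown here because it is a feature that the choice of genes did not use. RefSeq start sites (GRCm38.p6, chromosome 1) were found for 5 of the 6 genes, with none for Ifi204. In windows from 250 bases before to 50 bases after each start, the interferon-stimulated response element was searched as a pair of GAAA repeats separated by any 2 bases, on both strands, with overlapping matches counted. It was present for 4 of the 5 genes (Ifi203, Ifi205, Ifi206 and Mndal) and for 5 of the 7 other Ifi200 genes (Ifi207, Ifi208, Ifi211, Ifi213 and Ifi214), while 3.44% of all 32851 promoter windows held it. The family was counted by gene, with a match at any listed start, and the share by window. Several family windows share long runs of bases, given below, so their matches are not separate occurrences. Aim2 had no match in its window, and neither had Ifi209 or Ifi202b. Each stretch below ends before the start site, runs 5′ to 3′ on the strand of its gene, and has the element in capitals.
Ifi206, chr1:173491319-173491393, minus strand: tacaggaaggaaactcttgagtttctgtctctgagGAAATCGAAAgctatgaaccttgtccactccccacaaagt
Ifi203, chr1:173942493-173942562, minus strand: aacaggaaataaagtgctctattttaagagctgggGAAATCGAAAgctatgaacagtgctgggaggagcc
Mndal, chr1:173880188-173880258, minus strand: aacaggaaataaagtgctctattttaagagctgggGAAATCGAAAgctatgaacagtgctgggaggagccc
Ifi205, chr1:174031845-174031924, minus strand: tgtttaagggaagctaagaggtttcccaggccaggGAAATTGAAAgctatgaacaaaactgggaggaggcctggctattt
Ifi207, chr1:173741810-173741885, minus strand: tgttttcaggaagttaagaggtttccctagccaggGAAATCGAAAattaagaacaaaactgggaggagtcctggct

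The version GAAATCGAAA, which holds a CpG, the dinucleotide that DNA methyltransferases act on, was rare. It occurred in 16 promoter windows (0.0487%), of 16 genes, 7 of which were Ifi200 genes and 9 were others, among them Ddx58, the RNA sensor RIG-I. The Ifi200 windows among them include close copies of each other. Of all 1131 windows with the general element, 10.7% had a version with a CpG inside. Ifi205 and Ifi211 carried GAAATTGAAA instead, which has no CpG. CpGs were otherwise few: the windows of Ifi206, Mndal and Ifi205 held 1 each, which for Ifi206 and for the first start of Mndal was the one inside the element, and that of Aim2 held 5, against a median of 7 over all windows. The second listed start of Ifi203, shown above, had 2 CpGs, and its first had 1 CpG and no element. A second start of Mndal had the version GAAAGAGAAA on the opposite strand, and Ifi205 had a further match after its start. A match of letters is not evidence of binding or of methylation, neither of which was measured.

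Aim2 differed from the chosen Ifi200 genes in this window. It had no such element and held the PU box GAGGAAGT, the core recognised by the myeloid and B-cell factor PU.1, which was found in 3.2% of all windows (both strands) and in no other window of the family. The stretch around it, with the box in capitals, is printed because it contrasts with the element above.
Aim2, chr1:173420456-173420533, plus strand: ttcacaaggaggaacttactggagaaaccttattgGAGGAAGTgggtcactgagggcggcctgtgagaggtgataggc
The interferon-gamma element TTCNNNGAA, whose reverse complement is itself, was found in 8.3% of all windows and, within the family, in Ifi202b.

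The promoters also show how alike the genes are. The longest run of identical bases between windows was 182 for Ifi206 and Ifi208, 139 for Ifi203 and Mndal, 135 for Ifi206 and Ifi213, and 45 for Ifi205 and Ifi211. Probe sequences were not used here, and a probe set named for one of these genes may also read RNA of its close relatives, so single members are uncertain.

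All 5 genes with values had a lower mean in Dnmt3a+/- cells, by 7 to 44% on the linear scale, where 54.3% of all 20059 genes had a negative difference. Aim2, Ifi203 and Ifi206 had all 3 Dnmt3a+/- arrays below all 3 wild-type arrays, as 9.05% of all genes did, while Ifi204 and Ifi205 overlapped. None had the reverse, which 6.74% of all genes showed. The median log2 difference of the 5 genes was -0.35, against -0.02 for all genes. Since the genes were chosen on this contrast, these counts describe the choice and support nothing further.

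Ifi206, an interferon-inducible PYHIN gene, had the largest difference. Its gene value, a log2 intensity averaged over 8 probe sets, read 7.10, 7.05 and 7.50 on wild-type replicates 1 to 3, against 6.34, 6.34 and 6.48 on Dnmt3a+/- replicates 1 to 3. The Dnmt3a+/- arrays lay close together, and the highest of them was 0.57 below the lowest wild-type array. The means were 7.22 ± 0.24 (SD, n = 3) and 6.39 ± 0.08 (SD, n = 3), a log2 difference of -0.83 (SE 0.14), or 1.78-fold lower. It was the 28th lowest difference among the 20059 genes, a rank on the contrast by which the gene was chosen. The probe set of the lowest difference, 4670274, passed the median level of the table only through its wild-type readings. Without it the gene's difference was -0.59, and with the filter raised to the 75th percentile of all probe sets it was -0.37. The value of -0.59 still held probe set 5596222, near the filter of 5.89. That probe set read 6.52, 6.45 and 6.47 on the wild-type arrays, against 5.03, 6.18 and 5.89 on the Dnmt3a+/- arrays.

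Aim2, the inflammasome-forming DNA receptor, read 8.90, 9.19 and 8.94 on the wild-type arrays, against 8.85, 8.25 and 8.59 on the Dnmt3a+/- arrays over 11 probe sets. The genotypes were only 0.05 apart at their nearest, since Dnmt3a+/- replicate 1 lay just under the wild-type range and replicate 2 far under it. The means were 9.01 ± 0.16 and 8.56 ± 0.30 (SD, n = 3), a log2 difference of -0.45 (SE 0.17), or 1.37-fold lower. Without Dnmt3a+/- replicate 2 the difference was -0.29. That array stood apart from all others over the whole table.

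Ifi203, the family member with the most probe sets (34), read 9.39, 9.47 and 9.62 on the wild-type arrays, against 9.16, 8.998 and 9.27 on the Dnmt3a+/- arrays. The groups did not overlap, with 0.12 between the nearest arrays. The means were 9.49 ± 0.11 and 9.14 ± 0.14 (SD, n = 3), a log2 difference of -0.35 (SE 0.12), or 1.28-fold lower. Taking the median of the probe sets on each array instead of the mean gave -0.18.

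Ifi205, which has been linked to the inflammasome adaptor Pycard in macrophages, read 7.65, 7.44 and 7.38 on the wild-type arrays, against 7.03, 7.46 and 7.22 on the Dnmt3a+/- arrays over 4 probe sets. Dnmt3a+/- replicate 2 lay within the wild-type range, and the other Dnmt3a+/- arrays lay below it. The means were 7.49 ± 0.14 and 7.23 ± 0.22 (SD, n = 3), a log2 difference of -0.26 (SE 0.14). This value rested on 1 probe set, being -0.02 without it, and it was -0.15 without Dnmt3a+/- replicate 1 and -0.53 with dim probe sets admitted.

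Ifi204 had the smallest difference. It read 10.01, 10.10 and 10.22 on the wild-type arrays, against 9.88, 10.10 and 10.03 on the Dnmt3a+/- arrays over 3 probe sets, and only Dnmt3a+/- replicate 1 lay below the wild-type range. The means were 10.11 ± 0.11 and 10.003 ± 0.12 (SD, n = 3), and the log2 difference of -0.11 (SE 0.12) was smaller than either spread. With the median of its probe sets the sign turned, at 0.14.

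**Figure D1:**
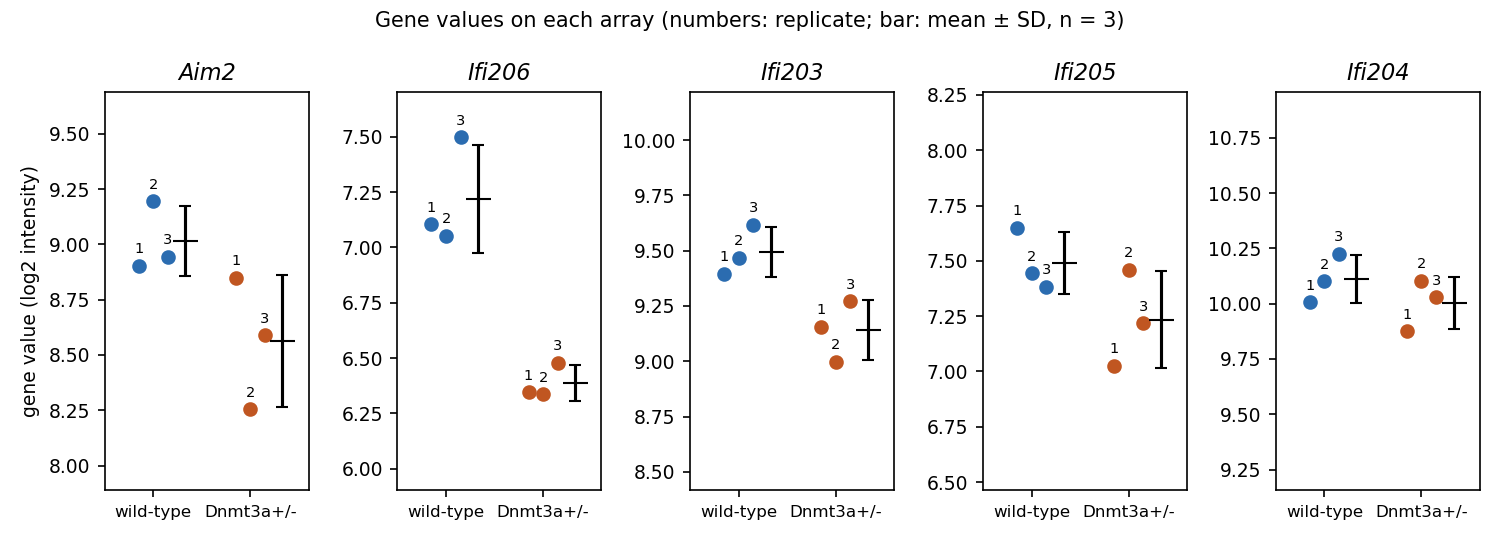
Gene values (log2 intensity, y axes of equal span but different position) of the 5 genes on the 3 wild-type and 3 Dnmt3a+/- arrays, each point 1 array with its replicate number, with the mean ± SD beside it. The genotypes are separate for Aim2, Ifi206 and Ifi203, by 0.57 for Ifi206 and by 0.05 for Aim2, and overlap for Ifi205 and Ifi204.

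The 5 genes did not follow one order of arrays within a genotype. Among the wild-type arrays replicate 3 was highest for Ifi203, Ifi204 and Ifi206, replicate 1 for Ifi205 and replicate 2 for Aim2. Among the Dnmt3a+/- arrays replicate 2 was lowest for Aim2, Ifi203 and Ifi206 but highest for Ifi204 and Ifi205. Averaged over the 5 genes and set against each gene's wild-type mean, the arrays read -0.05, -0.01 and 0.07 on the wild-type arrays, against -0.42, -0.43 and -0.35 on the Dnmt3a+/- arrays. The corresponding medians over all genes lay between -0.03 and 0.01.

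The single probe sets show how far each gene value is shared by its parts. Of the 71 probe sets of the 5 genes, 63 had a negative difference (48.1% of all 1256831 probe sets did) and 24 were lower on every Dnmt3a+/- array (5.3% of all). None of the 71 was higher on every Dnmt3a+/- array, where 6.27% of all (6.31% of those above the median level) were. Among the 60 above the median level, 54 were negative and 22 were lower throughout, where 50.3% and 6.1% of all probe sets above that level were. Some of the 60, such as 4670274 and 5596222 of Ifi206 and 5328885 of Ifi203, had Dnmt3a+/- readings under that level. They passed on the mean of all arrays, so the filter itself bears on these counts. Probe sets of 1 gene share their RNA and are not replicates of a genotype.

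For Ifi206 all 9 probe sets were negative. Probe set 4670274 read 7.52, 7.10 and 7.96 on the wild-type arrays, against 5.74, 4.26 and 4.93 on the Dnmt3a+/- arrays, a log2 difference of -2.55 (SE 0.43). All 3 Dnmt3a+/- readings lay more than 1 unit below every wild-type reading and under the median level of the table. At the other end, probe set 5206673 stood at -0.31 (SE 0.33), with the genotypes overlapping. The same gene thus gave differences that varied by over 2 log2 units between probe sets.

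For Aim2, 10 of 11 probe sets were negative, from -0.90 to 0.03. Probe set 4419103 read 10.32, 10.63 and 10.30 on the wild-type arrays, against 10.20, 9.16 and 9.53 on the Dnmt3a+/- arrays. It was 1 of the 2 Aim2 probe sets lower on every Dnmt3a+/- array. Probe set 5044635, with the lowest difference (-0.90, SE 0.48), read 7.56 on Dnmt3a+/- replicate 2 and 9.38 on replicate 1. Probe set 5281851, at 0.03 (SE 0.43), was the only one of Aim2 that was not negative and also its dimmest.

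For Ifi203, 33 of 35 probe sets were negative and 15 were lower on every Dnmt3a+/- array. Above the level filter they ran from -0.71 (probe set 5290656, SE 0.27) to 0.32 (probe set 4520178, SE 0.29). The former read 6.998, 7.45 and 7.26 on the wild-type arrays, against 6.90, 6.15 and 6.53 on the Dnmt3a+/- arrays. The latter read 7.84, 8.04 and 8.10 on the wild-type arrays, against 7.89, 8.79 and 8.27 on the Dnmt3a+/- arrays. Dnmt3a+/- replicate 2 was thus the lowest of all arrays in the one and the highest in the other.

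For Ifi205 the 4 probe sets above the filter lay on both sides of 0. Probe set 5426650 read 7.39, 6.90 and 6.77 on the wild-type arrays, against 6.13, 5.85 and 6.21 on the Dnmt3a+/- arrays, a log2 difference of -0.96 (SE 0.26), with no overlap. Probe set 4745240 also had no overlap at a smaller difference of -0.29 (SE 0.20), with 11.04, 10.97 and 11.13 against 10.76, 10.72 and 10.79. Probe sets 4942218 and 4701091 stood at 0.02 (SE 0.32) and 0.20 (SE 0.41). A dim probe set, 5303211, left out by the filter, read 3.84, 4.62 and 3.84 against 2.04, 1.80 and 2.53.

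For Ifi204, the 3 probe sets above the filter stood at -0.33 (5471257, SE 0.26), -0.14 (4876264, SE 0.22) and 0.14 (5368871, SE 0.21), and none separated the genotypes. The filter, at a mean log2 level of 5.89, was set by the whole table. Just above it lay probe set 4942218 of Ifi205 (mean level 5.92, difference 0.02) and 5328885 of Ifi203 (6.07, -0.52). Just below it lay probe set 4474698 of Ifi203 (5.74, -0.85), followed by 5326903 of Ifi205 (4.89, -1.09).

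**Figure D2:**
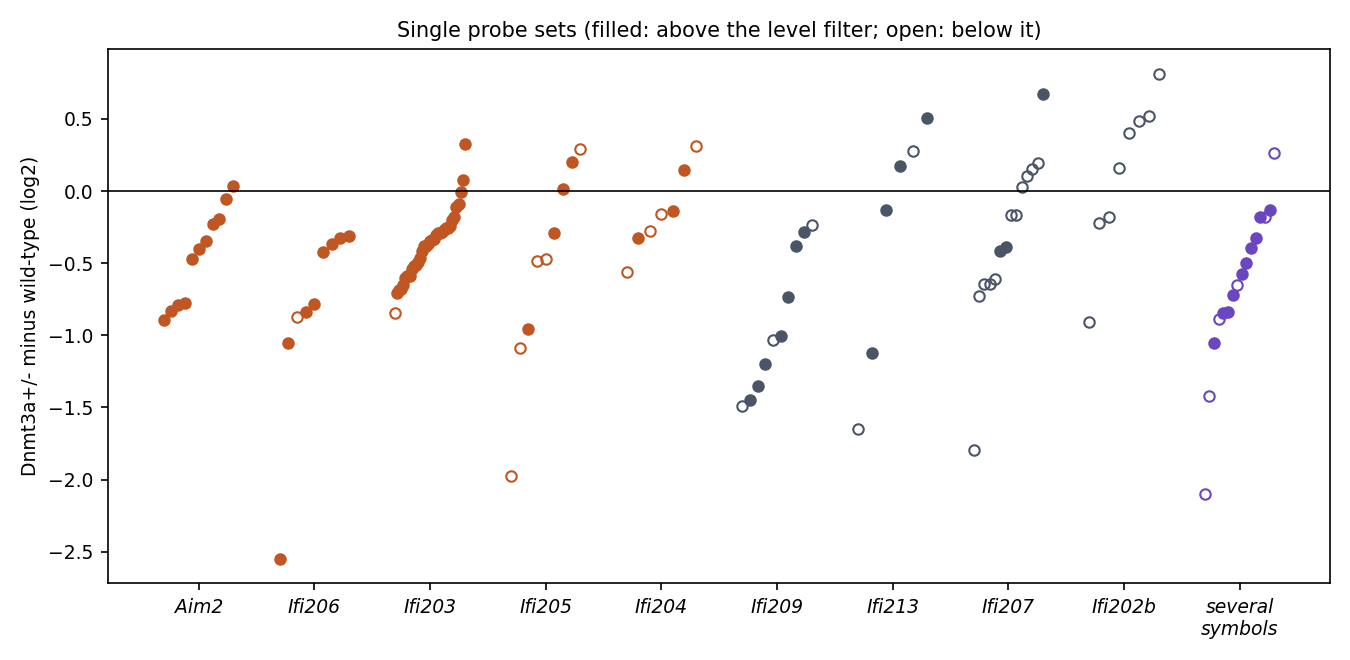
Log2 difference (Dnmt3a+/- minus wild-type) of every single probe set of the 5 genes, of 4 other Ifi200 genes, and of those listed under several symbols of the family; each point is 1 probe set, filled above and open below the level filter. All 9 probe sets of Ifi206 and all 10 of Ifi209 lie below 0, those of every other gene or group shown lie on both sides, and the lowest point is the Ifi206 probe set at -2.55.

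A further 16 probe sets were listed under several symbols of the family, most of them under Ifi204 together with Mnda, which RefSeq lists as an older name of Ifi211. They belong to no single gene and did not enter the gene values. Of these, 15 were negative (48.1% of all probe sets) and 4 were lower on every Dnmt3a+/- array (5.3% of all), with differences from -2.10 to 0.27 and a median of -0.61. Probe set 4900355 (Ifi204 and Mnda) read 9.97, 9.76 and 9.83 on the wild-type arrays, against 9.44, 9.52 and 9.62 on the Dnmt3a+/- arrays, with no overlap and a log2 difference of -0.32 (SE 0.20). Probe set 4932192, under the same symbols, stood at -0.13 (SE 0.23) with the genotypes overlapping.

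The other Ifi200 genes were read from the same fit across all genes (limma, Benjamini-Hochberg), in which 0 of 20059 genes (0%) passed adjusted p 0.05 and 1502 had an unadjusted p under 0.05. Of the 7 other genes, 3 had a gene value. All 3 had negative differences, and 0 passed or separated the genotypes. Ifi209, also called Pyhin1, read 7.04, 7.49 and 8.26 on the wild-type arrays, against 7.52, 6.43 and 6.10 on the Dnmt3a+/- arrays, a log2 difference of -0.91 (SE 0.41, limma adjusted p = 0.631). Dnmt3a+/- replicate 1 lay inside the wild-type range, and without it the difference was -1.33, while without wild-type replicate 3 it was -0.58. It was -0.33 with the filter at the 75th percentile and -0.60 with array weights. All 10 of its probe sets were negative.

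Ifi213, whose older names Pydc4 and Pyr-A refer to its pyrin domain, stood at -0.14 (SE 0.25, limma adjusted p = 0.849). Ifi207 stood at -0.04 (SE 0.13, limma adjusted p = 0.918), with 3 probe sets above the filter that ran from -0.41 to 0.68. Its 11 probe sets below the filter ran from -1.80 to 0.19 and did not enter this value. The sign of Ifi213 turned without wild-type replicate 3 or Dnmt3a+/- replicate 1 (0.09 and 0.08), and that of Ifi207 without wild-type replicate 2 or Dnmt3a+/- replicate 1 (0.02 and 0.04). Other settings moved both genes downwards: with the filter at the 75th percentile, without a filter and with the median of probe sets Ifi207 was -0.41, -0.31 and -0.32 and Ifi213 was -0.48, -0.32 and -0.29. With array weights Ifi207 was -0.13 and Ifi213 was -0.49. Ifi202b, which lacks a pyrin domain and counters Aim2, had 8 probe sets, all below the level filter, and 5 of them were positive.

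In the RefSeq order of genes the family forms 1 block that begins with Aim2 and ends with Ifi205. All 8 of its 13 genes that had values were negative, where 54.3% of all genes were. Of these 8, 5 were chosen for being lower, and among the other 3 Ifi213 and Ifi207 turned positive when 1 array was left out. The nearest 5 genes with values before it, Cadm3, Fcer1a, Olfr1404, Olfr1408 and Apcs, had positive differences, from 0.04 (Fcer1a, the high-affinity IgE receptor, SE 0.14) to 0.40 (Olfr1408, SE 0.26). Of the nearest 5 after it, all olfactory receptors, Olfr429 was negative (-0.30, SE 0.21). Olfr433, Olfr432, Olfr231 and Olfr420 were positive, from 0.20 (Olfr432, SE 0.27) to 0.61 (Olfr433, SE 1.10). Olfr433 read from 3.80 to 7.51 over all arrays. Several neighbours were dim, with mean levels near the filter. Wild-type and Dnmt3a+/- means were 5.72 and 6.11 for Olfr1408, and 5.85 and 5.95 for Olfr1404. They were 5.62 and 6.24 for Olfr433, and 5.99 and 6.19 for Olfr432. Others lay higher, such as Olfr429 at 7.32 and 7.02. The signs of the dim neighbours are uncertain. Of these 10 neighbours, 9 rested on 1 probe set each and 0 passed (limma, smallest adjusted p = 0.631). The difference between the block and its neighbours was not tested.

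**Figure D3:**
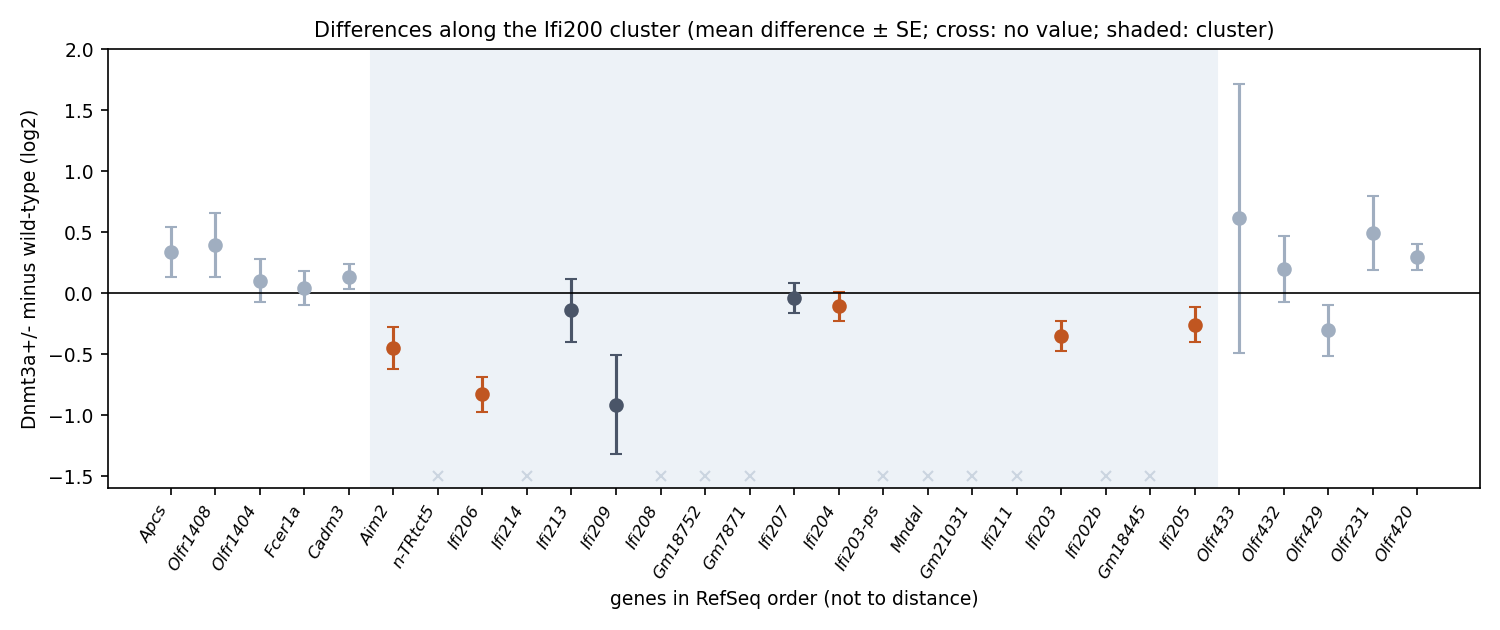
Log2 difference (Dnmt3a+/- minus wild-type) ± SE of the genes in RefSeq order along chromosome 1, evenly spaced; orange points are the 5 chosen genes, dark grey other Ifi200 genes, light grey neighbours, and crosses mark genes without a value. All points in the shaded block lie below 0, from -0.91 for Ifi209 to -0.04 for Ifi207, and all 5 before it lie above. Several neighbours, among them Olfr1408, Olfr1404, Olfr433 and Olfr432, had mean levels near the filter.

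A general list of inflammasome genes, which also holds sensors other than Aim2, was mixed. Of 17 genes listed, all had values, 12 were negative, 2 were lower on every Dnmt3a+/- array, and 0 passed (limma, adjusted p 0.05), with a median of -0.08. Over all genes 54.3% were negative and 9.05% lower on every Dnmt3a+/- array, and the 2 of 17 are near that share. The median was -0.20 without Dnmt3a+/- replicate 1, -0.15 without wild-type replicate 1, -0.05 without Dnmt3a+/- replicate 2, -0.14 without a level filter and -0.04 with array weights. Nlrc4, which builds its own inflammasome, stood at -0.65 (SE 0.17, limma adjusted p = 0.631) and was lower on every Dnmt3a+/- array. Pycard, the adaptor of Aim2, stood at -0.24 (SE 0.18), Casp1 at -0.08 (SE 0.16) and the pore former Gsdmd at -0.23 (SE 0.13). The cytokine genes Il18 and Il1a were on the other side, at 0.40 (SE 0.16) and 0.55 (SE 0.21), and Il1b stood at 0.00 (SE 0.17). Caspase-1 cleaves the products of Il1b and Il18.

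A list of DNA-sensing and related genes, wider than those that act through Sting1, had a median of -0.19. Of its genes 14 of 17 were negative (54.3% of all genes), 3 were lower on every Dnmt3a+/- array (9.05% of all genes) and 0 were past the threshold (limma). Sting1 itself stood at -0.32 (SE 0.15) and its kinase Tbk1 at -0.33 (SE 0.12), both lower on every Dnmt3a+/- array. Trim56, a ubiquitin ligase that promotes Sting1 signalling, stood at -0.78 (SE 0.30) and the helicase Ddx41 at -0.45 (SE 0.19). Cgas, which makes the messenger that Sting1 binds, stood at 0.11 (SE 0.24). The median was -0.09 after a further quantile normalization, -0.11 with array weights and -0.11 without Dnmt3a+/- replicate 2.

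Genes that carry the interferon signal had 13 of 15 members negative and 9 lower on every Dnmt3a+/- array, with a median of -0.25 and 0 past the threshold (limma), where 54.3% and 9.05% of all genes were. The median was -0.13 after a further quantile normalization, -0.17 with array weights and -0.17 without Dnmt3a+/- replicate 2. Jak2 stood at -0.40 (SE 0.11), Irf9, the DNA-binding subunit of the factor that recognises the interferon-stimulated response element, at -0.47 (SE 0.16), and Irf1 at -0.37 (SE 0.13). Of 27 interferon-stimulated genes outside the family, 26 were negative (54.3% of all genes) and 16 were lower on every Dnmt3a+/- array (9.05% of all genes), with a median of -0.31 and 0 past the threshold (limma). The antiviral enzyme gene Oas2 stood at -0.55 (SE 0.12), Cmpk2 at -0.42 (SE 0.11) and the GTPase gene Igtp at -0.49 (SE 0.14). The interferon lists were written with earlier results of these data known and were already seen to be lower, so they are no independent support.

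**Figure D4:**
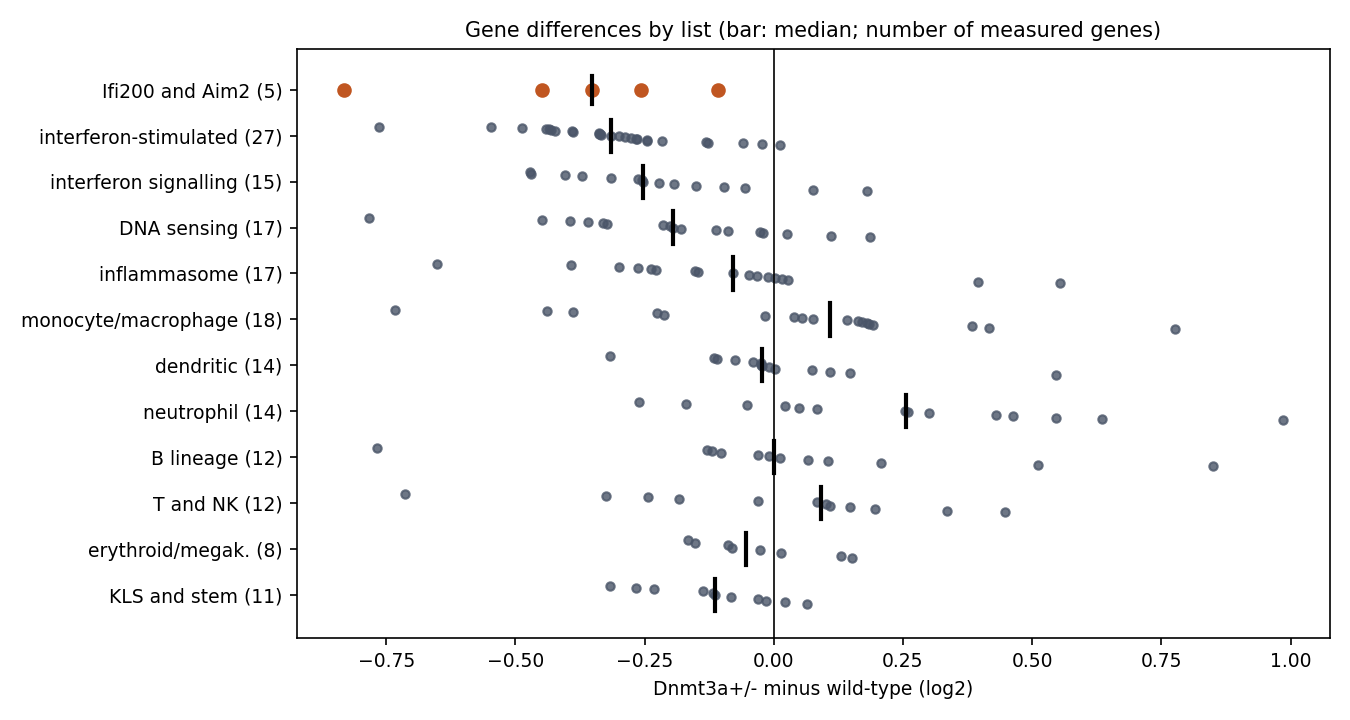
Log2 differences (Dnmt3a+/- minus wild-type) of the genes of each list, each point 1 gene and each bar the median, with the number of measured genes after each name. The medians lie at -0.35 for the Ifi200 genes with Aim2, -0.31 for interferon-stimulated and -0.08 for inflammasome genes, and at 0.11 and 0.26 for the monocyte and neutrophil lists; without Dnmt3a+/- replicate 1 the neutrophil median was -0.029 and the inflammasome median -0.20, and without Dnmt3a+/- replicate 2 the monocyte median was 0.04.

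Ifi200 genes are abundant in monocytes and macrophages, so markers of these and other cells were read beside them. Of 18 measured monocyte and macrophage genes, 6 were negative, with a median of 0.11, and the mean level of the list ran from 7.35 to 7.48 on wild-type and from 7.36 to 7.54 on Dnmt3a+/- arrays. Within it Csf1r stood at -0.73 (SE 0.19) and Cd163 at -0.39 (SE 0.14), both lower on every Dnmt3a+/- array, while Adgre1 (F4/80) stood at 0.42 (SE 0.15) and Vcam1 at 0.78 (SE 0.29), both higher on every one. The neutrophil list had a median of 0.26 (3 of 14 negative), with Retnlg at 0.98, Mmp8 at 0.64 and Fcnb at -0.26, and mean levels from 8.63 to 9.18 and from 8.99 to 9.62. This neutrophil median rested on single arrays: it was -0.029 without Dnmt3a+/- replicate 1, -0.00031 without wild-type replicate 2, 0.41 without wild-type replicate 1, 0.39 without Dnmt3a+/- replicate 3 and 0.54 with array weights. The monocyte and macrophage median was 0.04 without Dnmt3a+/- replicate 2, 0.07 without wild-type replicate 3 and 0.06 with the median of probe sets. The part of such cells in the lower Ifi200 values was not tested.

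The other cell lists had medians nearer 0. Dendritic cell genes stood at -0.02 (9 of 14 negative, mean levels 7.64 to 7.73 and 7.63 to 7.78), with H2-Aa at 0.55, Flt3 at -0.32 and H2-Ab1 at 0.15. B-lineage genes stood at 0.00 (6 of 12, mean levels 7.38 to 7.64 and 7.42 to 7.71), with Cd72 at -0.77, Cd22 at 0.51 and Cd79a at 0.85. T and NK genes stood at 0.09 (5 of 12, mean levels 7.09 to 7.21 and 7.03 to 7.20), with Klrd1 at -0.71, Cd3e at 0.33 and Ncr1 at 0.45. Erythroid and megakaryocyte genes stood at -0.05 (5 of 8, mean levels 7.37 to 7.55 and 7.23 to 7.53), with Slc4a1 at 0.15, Tfrc at -0.17 and Gata1 at -0.09. None of these 4 medians kept its sign under all settings: over all of them they ran from -0.08 to 0.06 for dendritic, -0.05 to 0.11 for B-lineage, -0.024 to 0.15 for T and NK, and -0.12 to 0.03 for erythroid and megakaryocyte genes. In all these lists 0 genes passed (limma, adjusted p 0.05).

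Each gene's array profile, centred on its own mean, was also compared with those of all other genes by the root mean square distance over the 6 arrays. The nearest to Aim2 were Axin1 (0.032), Supt6 (0.048) and Lin37 (0.053), where the median distance to all genes was 0.326. Nearest to Ifi206 were 4930587E11Rik (0.103), Slc35d3 (0.120) and 6720489N17Rik (0.136), with a median of 0.462. Nearest to Ifi203 were Ate1 (0.038), Slmap (0.043) and Mtx2 (0.043). For Ifi205 they were 1700048B10Rik (0.043), Hoxa3 (0.043) and Mcpt1 (0.051), and for Ifi204 they were Adam1b (0.024), Zfp644 (0.028) and Ccdc39 (0.032). No Ifi200 gene was among the 3 nearest of another: 122 genes lay nearer to Ifi206 than Ifi203 did, at 0.259, and 1821 nearer to Aim2 than Ifi203, at 0.185. With 20058 other genes and 6 arrays these are a description only.

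Over the whole series, Dnmt3a itself was lower on every Dnmt3a+/- array, at 8.57 ± 0.11 and 8.26 ± 0.10 (SD, n = 3), a log2 difference of -0.31 (SE 0.12, exact two-sided permutation p = 0.1, the smallest that 3 against 3 arrays can give). After a further quantile normalization it was -0.19. Kit and Ly6a, which encodes Sca-1, had values on all arrays with differences of -0.11 (SE 0.10) and -0.02 (SE 0.13). Kit was lower on every Dnmt3a+/- array, as 9.05% of all genes were, while Ly6a overlapped. The KLS and stem cell list had a median of -0.11 (9 of 11 negative, mean levels 9.14 to 9.20 and 9.01 to 9.09), with Flt3 at -0.32, Cd34 at -0.23 and Cd48 at -0.27. This median was -0.028 after a further quantile normalization, -0.08 with cyclic loess and -0.07 with array weights. The lineage genes Lck, Hba-a1, Hbb-bs, Elane and Ly6g were among those with no probe set above the level filter. Dnmt3a+/- replicate 2 had the lowest mean correlation with the other arrays over genes, 0.904, where the others had 0.938 to 0.949.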

How the data were processed

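RNA of 6 KLS samples was amplified, labelled with biotin and read on 1-colour whole-transcript arrays. The authors deposited 1 normalized intensity per probe set and array, made with RMA in Partek per the submitters' processing notes. The settings and the genome build are not stated in any source here. Deposited intensities ran on a linear scale (array medians 59.8 to 61.6), so log2 was taken, with no pseudocount. RMA brings arrays to nearly one distribution, which hides a change shared by most genes. With no counting depth in an array, the number of arrays limits precision.

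Probe sets with 1 platform symbol were named through RefSeq (GRCm38.p6): of 22296 symbols, 18006 were current, 4227 updated and 63 kept. The platform annotation can be old; Ifi206 was listed there as EG240921. A gene value is the mean of its probe sets above the median level (log2 5.89). The contrast of genotypes was fitted by limma 3.58.1 (lmFit, eBayes; R 4.3.3), with p-values adjusted over all genes; the fit was tested on simulated data. Differences are Dnmt3a+/- minus wild-type. The members and lists were chosen with earlier results of these data known. Named genes are the 6 members, other Ifi200 genes, 5 neighbours on each side, the 3 genes of each list with the smallest p, the 3 genes of most like profile, and Dnmt3a; further list members (such as Pycard, Sting1, Cgas and the sort markers) were named after their values were seen. Promoter sequences are from RefSeq. Alternatives were other scalings, filters, summaries, variance models, array weights, a replicate block and leaving out each array.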

Additional observations from a re-analysis of the deposited data

How the results depend on the processing

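Over 14 alternatives the count of genes past adjusted p 0.05 was 0 (limma), as was that of single probe sets over 13, and the differences of Ifi203, Ifi205, Ifi206, Aim2 and Dnmt3a stayed negative. Of the 5 genes with values, 4 or 5 were negative and 2 to 4 were lower on every Dnmt3a+/- array. Over all genes these shares ran from 49.4 to 55.5% and from 6.57 to 17.2%. The latter was highest without wild-type replicate 1, since fewer arrays separate more easily. It was 12.5% without Dnmt3a+/- replicate 2, where 4 of the 5 separated. With the median of probe sets Ifi203 stood at -0.18, Ifi204 at 0.14 and Aim2 at -0.79. Ifi205 was -0.53 without a level filter, Ifi206 was -0.37 with the filter at the 75th percentile, which leaves fewer probe sets, and Dnmt3a was -0.19 after a further quantile normalization. Without the probe set of lowest difference, an alternative chosen after seeing the data, Ifi205 was -0.024 and Ifi206 -0.59, and Ifi204 was 0.0025. Leaving out each array gave -0.91 to -0.69 for Ifi206, -0.59 to -0.29 for Aim2, -0.42 to -0.28 for Ifi203, -0.37 to -0.15 for Ifi205 and -0.16 to -0.04 for Ifi204. The T and NK list's median, 0.09, turned to -0.018 without a level filter and ran from -0.024 (without wild-type replicate 3) to 0.152 when each array was left out; the cause was not tested. Same-numbered arrays of the genotypes did not deviate together (correlations over genes of -0.05, -0.09 and 0.11). The labels state no pairing, and with 3 arrays a group such weak correlations cannot show whether the samples were paired. With the replicate block Ifi206 stood at -0.83, as in the fit without it, 0 genes passed (limma), and 1274 rather than 1502 had an unadjusted p under 0.05. Shared sequence within the family and 3 arrays a group limit every value.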
